A study of Caenorhabditis elegans with 20 samples.

Results

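The 10 genes followed here encode core enzymes of Caenorhabditis elegans RNA interference (RNAi). They were measured in whole L3 larvae: the RNA-dependent RNA polymerases (RdRPs) rrf-1, rrf-2, rrf-3 and ego-1, Dicer (dcr-1) with its partner rde-4, the Dicer-related helicases drh-1 and drh-3, and the mutator genes rde-3 (mut-2) and mut-16. They were chosen by name, with earlier results of these data known, and all 10 were found among the 15568 genes of the RNA-seq table. The 3 genotypes had 2 libraries each. The lin-35 mutant carried the n745 allele (strain JA1507) and lacks the only retinoblastoma-like pocket protein of the worm, a part of the repressive DREAM complex. The htz-1 mutant (strain VC2490 in the labels, VC2480 in the methods of the study) carried ok3099, a lesion in the gene for histone variant H2A.Z, and its homozygotes were sorted as non-fluorescent progeny of balanced heterozygous mothers, so that maternal product could remain. N2 was the wild type. Larvae of lin-35 and N2 were cleaned on a sucrose gradient and not sorted, so the preparation of htz-1 larvae cannot be told apart from their genotype. Libraries of lin-35 and N2 with the same replicate number also share a code in their names, and the htz-1 libraries carry other codes. No source says what the code marks, and whatever it marks cannot be told apart from genotype in htz-1 against N2. All larvae were grown at 20°C after hatching without food for 24 to 42 hours. The series describes its populations as mixed males and hermaphrodites. No source says whether the replicate libraries were grown as separate cultures, so the p-values measure no more than the spread among these 6 libraries, and that spread may be technical. The comparisons ask which transcripts depend on lin-35, which depend on htz-1, and whether both mutants change the same genes.

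In the worm, Dicer cuts double-stranded RNA into primary small interfering RNAs, helped by the double-stranded RNA binding protein RDE-4 and by the RIG-I-like helicase DRH-1, which also takes part in antiviral defence. RdRPs then copy the targeted transcript into a larger pool of secondary small RNAs that are loaded onto worm-specific Argonautes. The mutator proteins gather with RdRPs in foci beside germ cell nuclei, where RDE-3 adds tails to the targeted transcripts and MUT-16 holds the foci together.

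The libraries held 13604791 to 18301926 reads, of which 73.9% to 77.2% lay in the listed genes. RPKM (reads per gene, corrected for gene length and library depth) are given as deposited, and each of the 10 genes rested on 87 to 2052 reads per library. A change is a log2 fold change from limma on the log2(RPKM + 0.5) scale after median-of-ratios scaling, which puts the change of the median gene near 0. With the deposited RPKM and no scaling, the median gene was 0.15 higher in lin-35 than in N2 (log2). A gene is called higher or lower when its p-value, adjusted over the 9679 genes tested, is under 0.05. All 10 genes passed the expression filter. For lin-35 itself RPKM were 12.8 and 13.3 in lin-35 larvae, 13.5 and 11.8 in htz-1 larvae and 12.10 and 11.1 in N2; n745 is a nonsense allele, so these levels do not check the labels. For htz-1 they were 138 and 155 in lin-35 larvae, 65.6 and 27.8 in htz-1 larvae and 78.5 and 81.3 in N2. Both lin-35 libraries were above and both htz-1 libraries below N2, but neither the change in lin-35 (0.69, limma adjusted p = 0.183) nor that in htz-1 (−0.90, limma adjusted p = 0.0762) was called.

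Of the 10 genes, 6 were higher in lin-35 than in N2 (rrf-2, rde-4, rde-3, drh-3, drh-1 and dcr-1) and none was lower, where 23.8% of all tested genes were called (1175 higher and 1125 lower). The count of lower genes was also 0 by limma at an unadjusted p under 0.05 and 0 by limma-voom on recovered reads. In htz-1 against N2, 2 genes were higher (rrf-2 and rde-3) and 3 were lower (drh-1, rrf-1 and rde-4), where 31.7% of all tested genes were called (1474 higher and 1594 lower). The median log2 fold change of the 10 genes was 0.46 in lin-35 and 0.12 in htz-1, where that of all tested genes was −0.014 and −0.0046. The comparisons share the N2 libraries. Stricter thresholds were taken from the study (adjusted p under 0.001, fold above 1.5 and mean RPKM above 1). Here they were applied to limma, with the RPKM required in both genotypes and oscillating genes kept. The study applied its cut-offs to DESeq2 and left out oscillating genes, so the counts here are not those of the study. rrf-2 and rde-4 were then called in lin-35, where 2.99% of all tested genes were, and 0 of the 10 in htz-1, where 1.78% were. The groups of libraries did not overlap, on the scaled values, for 7 genes in lin-35 against N2, where 63.4% of all tested genes did not overlap, and for 9 genes in htz-1 against N2, where 72.2% did not. These shares lay near the background, so non-overlap by itself sets the 10 genes apart in neither comparison.

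**Figure D1:**
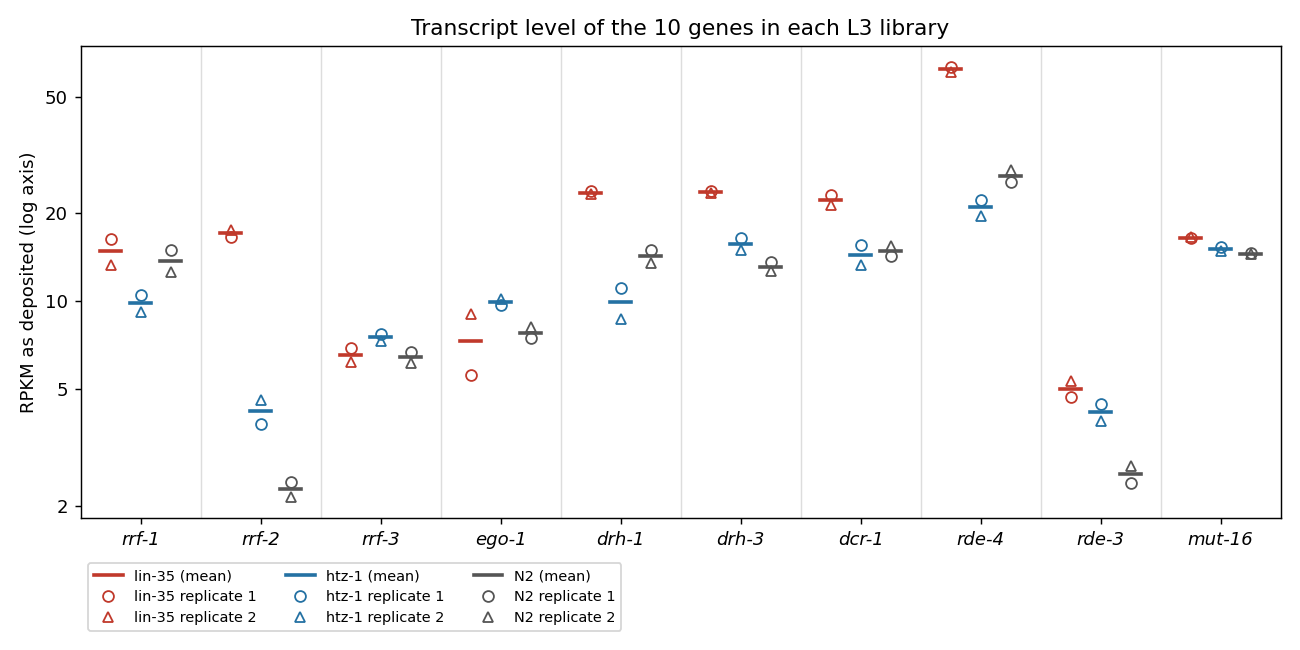
RPKM as deposited (log axis) of the 10 genes in the 6 libraries. For each gene, lin-35, htz-1 and N2 stand left to right, circles are replicate 1, triangles replicate 2, and the bar is the mean of the 2. The rrf-2 points of lin-35 (16.6 and 17.6 RPKM) lie far above those of N2 (2.41 and 2.14 RPKM), while the mut-16 points of all libraries lie between 14.5 and 16.6 RPKM.

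The largest change among the RdRP genes was that of rrf-2 (M01G12.12), the member of the family with the least defined role. It was at 16.6 and 17.6 RPKM in lin-35 larvae, 3.801 and 4.61 RPKM in htz-1 larvae, and 2.41 and 2.14 RPKM in N2. Both lin-35 libraries were far above all others, and both htz-1 libraries were above both N2 libraries. Its change was 2.50 ± 0.16 (SE, n = 2 libraries per genotype; limma adjusted p = 0.000132) in lin-35, or 5.65-fold on the test's scale, and it ranked number 80 of the 9679 genes by p-value. In htz-1 it changed by 0.75 ± 0.16 (limma adjusted p = 0.0133). The call in lin-35 held under all 16 alternatives of scaling, filter, pseudocount, fit and libraries (2.31 to 2.72). The call in htz-1 was lost without N2 replicate 1 (0.81, limma adjusted p = 0.0598), without N2 replicate 2 (0.69, limma adjusted p = 0.0814) or without htz-1 replicate 2 (0.61, limma adjusted p = 0.0698).

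rrf-1 (F26A3.8) encodes the RdRP that makes secondary small RNAs in the soma. It was at 16.3 and 13.3 RPKM in lin-35 larvae, 10.5 and 9.21 RPKM in htz-1 larvae, and 14.996 and 12.6 RPKM in N2. The lin-35 libraries overlapped those of N2, and both htz-1 libraries were below all others. In lin-35 the change was −0.073 with a 95% interval of −0.40 to 0.25 (limma adjusted p = 0.750). In htz-1 rrf-1 fell by 0.47 ± 0.14 on the log2 scale (limma adjusted p = 0.0400), a call lost under 7 of 16 alternatives, among them leaving out N2 replicate 1 (−0.36, limma adjusted p = 0.231), N2 replicate 2 (−0.59, limma adjusted p = 0.0755), htz-1 replicate 1 (−0.53, limma adjusted p = 0.0737) or htz-1 replicate 2 (−0.40, limma adjusted p = 0.167).

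ego-1 (F26A3.3), the neighbour of rrf-1 in the gene order, encodes the RdRP needed for germline development. It was at 5.58 and 9.07 RPKM in lin-35 larvae, 9.73 and 10.21 RPKM in htz-1 larvae, and 7.46 and 8.17 RPKM in N2. The lin-35 libraries lay on either side of N2, and both htz-1 libraries were above N2. The changes, −0.29 ± 0.23 in lin-35 (limma adjusted p = 0.411) and 0.33 ± 0.23 in htz-1 (limma adjusted p = 0.311), were not called. The value in lin-35 turned on the library: without replicate 2 it was −0.64 and called lower (limma adjusted p = 0.0410), and without replicate 1 it was 0.058 (limma adjusted p = 0.838). On the scaled log2 values replicate 2 of lin-35 was 0.71 above replicate 1, where the median gene differed by 0.17 between these libraries. Of 22 tested germ cell markers, 20 were also higher in replicate 2 of lin-35, by a median of 0.36 (log2). In htz-1, 20 of 22 were higher in replicate 2, by a median of 0.27, and ego-1 by 0.11. In N2, 18 of 22 were higher in replicate 2, by a median of 0.15, and ego-1 by 0.14. The part of germ cells in the ego-1 values was not tested.

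rrf-3 (F10B5.7) encodes the RdRP that works with Dicer on endogenous small RNAs and whose loss makes worms more sensitive to RNAi. It was at 6.91 and 6.20 RPKM in lin-35 larvae, 7.75 and 7.32 RPKM in htz-1 larvae, and 6.73 and 6.17 RPKM in N2. As deposited, the lin-35 libraries overlapped N2 and the htz-1 libraries were slightly above it. After scaling both lin-35 libraries were below N2, at 6.22 and 5.81 in lin-35 larvae against 6.95 and 6.48 in N2. The change was −0.15 in lin-35 (95% interval −0.45 to 0.16, limma adjusted p = 0.468) and 0.20 in htz-1 (95% interval −0.10 to 0.51, limma adjusted p = 0.265). Its span overlaps another protein-coding gene, T05C12.11, and the kit does not mark strand, so reads where both are transcribed cannot be assigned to either.

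Added up, the 4 RdRP genes gave 45.4 and 46.1 RPKM in lin-35 larvae, 31.8 and 31.3 RPKM in htz-1 larvae, and 31.6 and 29.0 RPKM in N2. The lin-35 sums were above all others, and those of htz-1 and N2 overlapped. The share of rrf-2 in this sum was 36.5% and 38.05% in lin-35 larvae, 11.97% and 14.7% in htz-1 larvae, and 7.62% and 7.38% in N2. In lin-35 larvae rrf-2 was thus the first of the 4 in both libraries, and in N2 the last. The ratio of ego-1 to rrf-1 was 0.341 and 0.682 in lin-35 larvae, 0.928 and 1.11 in htz-1 larvae, and 0.498 and 0.650 in N2. It was above N2 in both htz-1 libraries and spanned N2 in lin-35. No test was run on these shares and ratios.

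**Figure D2:**
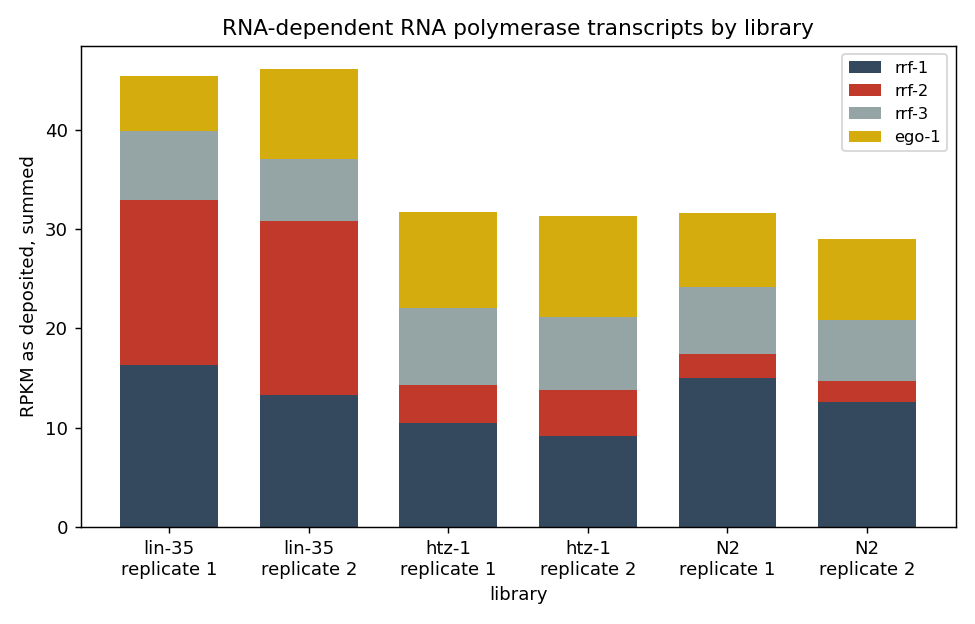
RPKM as deposited of the 4 RdRP genes, stacked for each library from rrf-1 at the bottom to ego-1 at the top, with lin-35, htz-1 and N2 from left to right. The rrf-2 band is the main difference in height between lin-35 (sums of 45.4 and 46.1 RPKM) and N2 (31.6 and 29.0 RPKM).

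Among the Dicer genes, rde-4 (T20G5.11), which encodes the double-stranded RNA binding partner of Dicer, was the most abundant of the 10 transcripts in all 3 genotypes. It was at 63.2 and 61.2 RPKM in lin-35 larvae, 22.3 and 19.7 RPKM in htz-1 larvae, and 25.5 and 28.1 RPKM in N2. Both lin-35 libraries were above all others and both htz-1 libraries below all others. It changed by 1.02 ± 0.10 in lin-35 (limma adjusted p = 0.000643), a 2.03-fold rise called under all 16 alternatives (0.94 to 1.20). In htz-1 it fell by 0.36 ± 0.10 on the log2 scale (limma adjusted p = 0.0343), and this call was lost without N2 replicate 1 (−0.44, limma adjusted p = 0.0834), N2 replicate 2 (−0.29, limma adjusted p = 0.196) or htz-1 replicate 2 (−0.29, limma adjusted p = 0.147), as it was without the variance trend (limma adjusted p = 0.0636), and with a replicate block and only the 2 genotypes compared (limma adjusted p = 0.0507). In lin-35 its neighbours in the gene order did not rise with it: cts-1, citrate synthase, and cox-14 fell by 0.36 (limma adjusted p = 0.0304) and 0.55 (limma adjusted p = 0.00354) on the log2 scale. In htz-1 cox-14 was called lower, as rde-4 was (−0.26, limma adjusted p = 0.0494). cts-1 was not called there (−0.20, limma adjusted p = 0.133).

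dcr-1 (K12H4.8), Dicer itself, was at 23.2 and 21.4 RPKM in lin-35 larvae, 15.5 and 13.3 RPKM in htz-1 larvae, and 14.3 and 15.5 RPKM in N2. Both lin-35 libraries were above all others, and htz-1 and N2 overlapped. It changed by 0.39 ± 0.11 in lin-35 (limma adjusted p = 0.0474) and by −0.054 in htz-1 (95% interval −0.32 to 0.21, limma adjusted p = 0.746). The call in lin-35 lay at the threshold and was lost under 9 of 16 alternatives. Without N2 replicate 1 the change was 0.32 (limma adjusted p = 0.264), without N2 replicate 2 it was 0.45 (limma adjusted p = 0.132), without lin-35 replicate 1 it was 0.36 (limma adjusted p = 0.152), and without lin-35 replicate 2 it was 0.42 (limma adjusted p = 0.0978).

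drh-1 (F15B10.2) encodes the helicase of the antiviral response. It was at 23.8 and 23.3 RPKM in lin-35 larvae, 11.1 and 8.71 RPKM in htz-1 larvae, and 14.9 and 13.6 RPKM in N2. The 3 genotypes did not overlap, with lin-35 highest and htz-1 lowest. It changed by 0.53 ± 0.13 in lin-35 (limma adjusted p = 0.0259) and by −0.52 ± 0.13 in htz-1 (limma adjusted p = 0.0233). Neither call held when libraries were left out. In lin-35 it was lost without N2 replicate 1 (0.58, limma adjusted p = 0.0907), N2 replicate 2 (0.46, limma adjusted p = 0.168), lin-35 replicate 1 (0.54, limma adjusted p = 0.0837) or lin-35 replicate 2 (0.52, limma adjusted p = 0.0879). In htz-1 it was lost without N2 replicate 1 (−0.47, limma adjusted p = 0.140), N2 replicate 2 (−0.58, limma adjusted p = 0.0782) or htz-1 replicate 2 (−0.37, limma adjusted p = 0.105).

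drh-3 (D2005.5), whose helicase acts with the RdRPs on secondary small RNAs, was at 23.9 and 23.4 RPKM in lin-35 larvae, 16.5 and 14.97 RPKM in htz-1 larvae, and 13.6 and 12.7 RPKM in N2. The 3 genotypes did not overlap, with lin-35 highest and N2 lowest. It changed by 0.65 ± 0.10 in lin-35 (limma adjusted p = 0.00436), a call kept under all 16 alternatives (0.60 to 0.82), and by 0.24 ± 0.10 in htz-1, which was not called (limma adjusted p = 0.114). The levels of drh-3 and drh-1 overlapped each other in lin-35 and in N2 but not in htz-1.

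Of the mutator genes, rde-3 (K04F10.6), which encodes the nucleotidyltransferase that tails targeted transcripts, was at 4.70 and 5.32 RPKM in lin-35 larvae, 4.44 and 3.91 RPKM in htz-1 larvae, and 2.39 and 2.73 RPKM in N2. All libraries of both mutants were above N2. It changed by 0.69 ± 0.17 in lin-35 (limma adjusted p = 0.0275) and by 0.61 ± 0.17 in htz-1 (limma adjusted p = 0.0350). With 87 to 170 reads per library it was the least deeply covered of the 10 genes. With all libraries kept, its calls were lost with quantile normalization (limma adjusted p = 0.102 in lin-35 and 0.0605 in htz-1). The same held with no filter on low values (limma adjusted p = 0.0593 in lin-35 and 0.0719 in htz-1). Its calls were also lost when single libraries were left out. In lin-35 this held for N2 replicate 1 (0.59, limma adjusted p = 0.161), N2 replicate 2 (0.78, limma adjusted p = 0.0901) and lin-35 replicate 2 (0.58, limma adjusted p = 0.102). In htz-1 it held for N2 replicate 1 (0.51, limma adjusted p = 0.191), N2 replicate 2 (0.69, limma adjusted p = 0.0968), htz-1 replicate 1 (0.55, limma adjusted p = 0.122) and htz-1 replicate 2 (0.67, limma adjusted p = 0.0907). Its span overlaps bli-4, a proprotein convertase gene. bli-4 was at 58.0 and 56.9 RPKM in lin-35 larvae, 55.9 and 43.2 RPKM in htz-1 larvae, and 41.1 and 43.0 RPKM in N2. Its changes, 0.27 in lin-35 (limma adjusted p = 0.158) and 0.22 in htz-1 (limma adjusted p = 0.210), were not called. The kit does not mark strand, so reads where both genes are transcribed cannot be assigned to either.

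mut-16 (B0379.3), the scaffold gene of the mutator foci, was at 16.5 and 16.6 RPKM in lin-35 larvae, 15.3 and 14.8 RPKM in htz-1 larvae, and 14.6 and 14.5 RPKM in N2. On the scaled values lin-35 and N2 overlapped. The change was −3.8e-05 in lin-35 (95% interval −0.24 to 0.24) and 0.039 in htz-1 (95% interval −0.20 to 0.28), and neither was called (limma adjusted p = 1.00 and 0.792). With the deposited RPKM the lin-35 libraries were above N2 by 0.17 (log2), about as far as the median gene, and this was not called either.

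**Figure D3:**
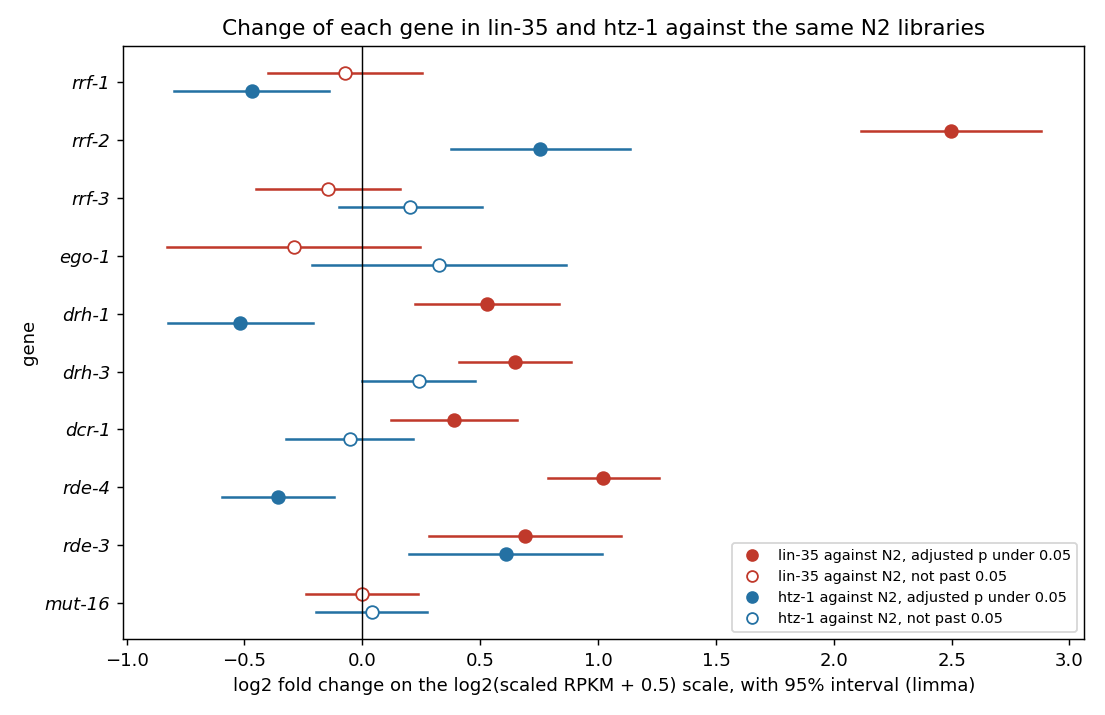
Log2 fold change of each gene in lin-35 (red, upper of each pair) and htz-1 (blue, lower) against the same N2 libraries, on the log2(scaled RPKM + 0.5) scale, with 95% intervals from limma. Filled points passed an adjusted p under 0.05. drh-1 and rde-4 lie right of 0 in lin-35 (0.53 and 1.02) and left of it in htz-1 (−0.52 and −0.36).

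Set against each other, the mutants differed at 5 of the 10 genes, all higher in lin-35 than in htz-1, where 29.8% of all tested genes were called (1484 higher and 1405 lower). At the thresholds taken from the study and applied to limma, rrf-2 and rde-4 were called, where 2.58% of all tested genes were. The difference was 1.74 ± 0.16 for rrf-2 (limma adjusted p = 0.000506), 1.38 ± 0.10 for rde-4 (limma adjusted p = 0.000229) and 1.05 ± 0.13 for drh-1 (limma adjusted p = 0.00181), and these 3 were called under all 16 alternatives. It was 0.44 ± 0.11 for dcr-1 (limma adjusted p = 0.0268) and 0.41 ± 0.10 for drh-3 (limma adjusted p = 0.0238). Without htz-1 replicate 2 these values were 0.35 (limma adjusted p = 0.128) and 0.36 (limma adjusted p = 0.107), and the call for drh-3 was lost without any 1 of the 6 libraries (limma adjusted p from 0.0504 to 0.107). That for dcr-1 was kept only without htz-1 replicate 1 (limma adjusted p from 0.0396 to 0.128 over the 6). For rde-3, higher in both mutants than in N2, the difference was 0.083 with a 95% interval of −0.32 to 0.49 (limma adjusted p = 0.741), which leaves room for a difference in either direction.

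The remaining genes had no call between the mutants, though some gained one under an alternative. ego-1 was 0.62 lower in lin-35 (95% interval −1.16 to −0.080, limma adjusted p = 0.0814), and the difference was called without lin-35 replicate 2 (−0.97, limma adjusted p = 0.0107) and with the replicate block (limma adjusted p = 0.0424). rrf-3 differed by −0.35 (limma adjusted p = 0.0814), and was called with quantile normalization (limma adjusted p = 0.0296) and by limma-voom (adjusted p = 0.0271). rrf-1 differed by 0.40 (limma adjusted p = 0.0704), and was called with the RPKM as deposited (limma adjusted p = 0.0312), with the replicate block (limma adjusted p = 0.0326) and by limma-voom (adjusted p = 0.0455). Opposite calls against N2, higher in lin-35 but lower in htz-1 as for rde-4 and drh-1, were found for 51 of all tested genes (0.527%). Being higher in both, as rrf-2 and rde-3 were, was found for 516 (5.33%).

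In order of level, rde-4 led in every genotype. In N2, dcr-1, mut-16, drh-1, rrf-1 and drh-3 followed between 12.6 and 15.5 RPKM, and each overlapped the next in this order. rde-3 and rrf-2 closed it, at 2.14 to 2.73 RPKM, and overlapped each other. In lin-35 rrf-2 held the fifth place and rde-3 was last. The lowest rrf-2 value in lin-35, 16.60 RPKM in replicate 1, was only just above the highest of mut-16 (16.56 RPKM) and of rrf-1 (16.35 RPKM). These gaps are small beside the counting SD of 2.90% for rrf-2 in that library. Among all tested genes the mean RPKM of rrf-2 exceeded that of 54.5% in lin-35, 22.3% in htz-1 and 13.7% in N2.

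By the distance between centred log2 values over the 6 libraries, the genes with the pattern most like that of rrf-2 among the 9679 tested were syp-1 (distance 0.26), which encodes a component of the synaptonemal complex, citk-1 (0.41) and inx-21 (0.43), a gap junction gene of the germline. syp-1 was at 61.8 and 62.3 RPKM in lin-35 larvae, 16.2 and 15.8 RPKM in htz-1 larvae, and 9.28 and 9.84 RPKM in N2. It was highest in lin-35 and lowest in N2 without overlap, an order that its choice by likeness to rrf-2 over these same libraries already favoured. In the gene order, the neighbour Y47H10A.5 of rrf-2 was at 6.66 and 5.33 RPKM in lin-35 larvae, 5.23 and 2.97 RPKM in htz-1 larvae, and 1.39 and 2.36 RPKM in N2, with a change of 1.32 ± 0.30 in lin-35 (limma adjusted p = 0.0192).

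Larvae were taken whole, so fewer cells of a type and less RNA per cell cannot be told apart. Of the 22 tested germ cell markers, 7 were higher and none lower in lin-35 than in N2, and 8 were higher and none lower in htz-1. Of all tested genes, 23.8% were called in lin-35 and 31.7% in htz-1, in either direction. The marker counts given here are to be read beside these shares, and no test was run on them. At an unadjusted limma p under 0.05, 1 was lower in lin-35 and 0 in htz-1, and limma-voom called 0 lower in both, but without lin-35 replicate 2 limma called 4 lower in lin-35. The higher calls in htz-1 numbered 3 without N2 replicate 1, 5 without N2 replicate 2 and 4 without htz-1 replicate 2. The median change of the 22 markers was −0.10 in lin-35, with 13 of them below 0, and 0.41 in htz-1, with 1 below 0. Between the mutants the median was −0.44. The RPKM of the 25 listed markers summed to 975 and 1048 in lin-35 larvae, 446 and 535 in htz-1 larvae, and 358 and 387 in N2, with no overlap between genotypes. Of these sums pgl-1, pgl-3 and glh-1 made up 679 and 715 in lin-35 larvae, 222 and 270.3 in htz-1 larvae, and 196 and 215 in N2. The lin-35 excess thus lay mostly in these 3 genes. None of the 25 was at 0 in all libraries, and meg-1 was at 0 in N2 replicate 1. Of 8 body wall muscle markers, 6 were lower in lin-35, with sums of 2596 and 2907 RPKM in lin-35 larvae, 3577 and 3758 RPKM in htz-1 larvae, and 3469 and 3749 RPKM in N2. That count was 0 with quantile normalization, 0 without N2 replicate 2 and 3 without lin-35 replicate 1. In lin-35, 2 of 5 intestine markers were higher and 3 lower, 1 of 10 neuron markers was higher and 1 lower, and 1 of 2 hypodermis and seam markers was higher. When any single N2 library was left out, none of these higher calls and no lower neuron marker was left (0 in each list). In htz-1, 2 intestine markers were lower, 1 neuron marker was higher and 3 lower, and 1 hypodermis and seam marker was higher; the intestine count was 0 without N2 replicate 1, and the higher neuron count 0 when htz-1 replicate 2 or any single N2 library was left out. None of these markers was at 0 in all libraries. The part of these shifts in the changes of the 10 genes was not tested.

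Other genes of the small RNA pathways were read from 6 lists with 63 tested genes. In lin-35 12 were higher and 2 lower than in N2, with a median change of −0.0023, and in htz-1 9 were higher and 5 lower, with a median of 0.071. These were 22.2% of the 63 genes in each comparison, no more than the 23.8% and 31.7% called among all tested genes, so the counts are no result about the small RNA genes as a group. Without N2 replicate 1 the counts in htz-1 were 3 higher and 2 lower, and they were also 3 and 2 without N2 replicate 2, and 3 and 3 without htz-1 replicate 2. In lin-35 the count of lower genes ran from 0 without N2 replicate 1 to 5 without lin-35 replicate 2.

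Among 11 tested partners of Dicer and the RdRPs, 2 were higher in lin-35: ekl-1, which acts with drh-3 (0.55 ± 0.10, limma adjusted p = 0.00810), and the helicase gene rde-12 (0.33 ± 0.08, limma adjusted p = 0.0226). The count of 2 was 0 when any single N2 library and 1 when any single lin-35 library was left out. In htz-1 the phosphatase gene pir-1, whose product binds Dicer, was the single call, at −0.54 ± 0.11 (limma adjusted p = 0.0122), and 0 were lower when any single N2 library was left out. Of 12 tested genes of mutator foci, Z granules and small RNA tailing, nyn-1 alone was called in lin-35. It was at 23.7 and 22.2 RPKM in lin-35 larvae, 9.19 and 9.33 RPKM in htz-1 larvae, and 7.40 and 9.13 RPKM in N2 (1.25 ± 0.13, limma adjusted p = 0.000929). In htz-1 the exonuclease gene mut-7 was higher (0.73 ± 0.12, limma adjusted p = 0.00504) and the Z granule gene znfx-1 lower (−0.36 ± 0.11, limma adjusted p = 0.0399), a call lost (count of 0) without any single library of N2 or htz-1.

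Of 13 tested Argonautes, 5 were higher and 1 lower in lin-35. hrde-1, the nuclear Argonaute of the germline, was at 198 and 182 RPKM in lin-35 larvae, 20.3 and 20.6 RPKM in htz-1 larvae, and 21.2 and 24.1 RPKM in N2. Both lin-35 libraries were far above the others, and the change was 2.86 ± 0.10 (limma adjusted p = 1.96e-05). vsra-1 (2.48), ppw-1 (1.32) and sago-2 (1.28) were also higher, as was sago-1 (0.44), and ppw-2 was lower (−0.98). The count of lower Argonautes was 0 without N2 replicate 1, N2 replicate 2 or lin-35 replicate 1 and without a variance trend, and 2 without lin-35 replicate 2. In htz-1 sago-1 (0.98) and vsra-1 (0.61) were higher and ergo-1 (−0.51), the Argonaute of the endogenous small RNAs that rrf-3 makes, was lower. When htz-1 replicate 2 or any single N2 library was left out, these counts were 1 higher and 0 lower, and 0 were also lower without lin-35 replicate 2. Of 12 piRNA genes, 4 were higher in lin-35, led by pid-2 (3.64) and tost-1 (1.23), and 3 in htz-1, led by parn-1 (0.81). The list medians were −0.10 and 0.33, and the 3 calls in htz-1 numbered 0 when htz-1 replicate 2 or any single N2 library was left out. Of 6 genes of nuclear RNAi and double-stranded RNA transport, nrde-2 was lower in lin-35 (−0.54) and the transporter gene sid-1 higher in htz-1 (0.54). The call in lin-35 was lost without N2 replicate 1, and that in htz-1 when htz-1 replicate 2 or any single N2 library was left out. Of 9 microRNA genes none was called in lin-35 (1 higher and 0 lower at an unadjusted limma p under 0.05, and 0 by limma-voom), while in htz-1 the microRNA Argonaute alg-1 (0.71) and the helicase gene cgh-1 (0.44) were higher and alg-2 (−0.84) and the exonuclease gene xrn-2 (−0.81) lower. In htz-1, 1 microRNA gene was higher when htz-1 replicate 2 or any single N2 library was left out.

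The intracellular pathogen response is a set of genes that natural infections switch on and that drh-1 helps to induce on viral infection. All 18 of its tested genes were higher in lin-35, where 23.8% of all tested genes were called in either direction. The median change of the 18 was 4.53. Of 22 listed genes 18 were in the RNA-seq table, and all 18 passed the filter. The filter uses the mean over all 6 libraries, so genes high in lin-35 were more likely to be tested. pals-5, at 22.1 and 13.8 RPKM in lin-35 larvae and 0.099 and 0 RPKM in N2, passed only through lin-35. So did pals-4 and pals-33, each under 1 RPKM in every htz-1 and N2 library. The same held for pals-14, whose mean over the htz-1 and N2 libraries was under 1 RPKM. The count of 18 and the median thus rest in part on genes that lin-35 let through the filter. Where N2 was near 0 the size of the change also rests on the added 0.5. pals-14 was at 92.1 and 59.1 RPKM in lin-35 larvae, 1.27 and 0.627 RPKM in htz-1 larvae, and 0.838 and 0.508 RPKM in N2, a change of 5.85 ± 0.29 (limma adjusted p = 6.77e-05). In htz-1, 4 of the 18 were higher, led by pals-32 (1.56), and 2 lower, eol-1 (−1.16) and skr-3 (−0.51), with a median of 0.35. Of all tested genes, 31.7% were called in htz-1 in either direction. The counts in htz-1 lay near that share and are no result about these genes as a group. limma-voom called 1 higher and 1 lower in htz-1. Leaving out N2 replicate 1 gave 1 higher and 0 lower, N2 replicate 2 gave 2 and 1, htz-1 replicate 2 gave 2 and 0, and htz-1 replicate 1 gave 1 lower. The change of drh-1 in lin-35, 0.53, was smaller than that of every one of these 18 genes, which ran from 0.61 to 5.85. The 95% interval of drh-1, 0.22 to 0.84, takes in the lowest of these, so the order is not settled there.

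**Figure D4:**
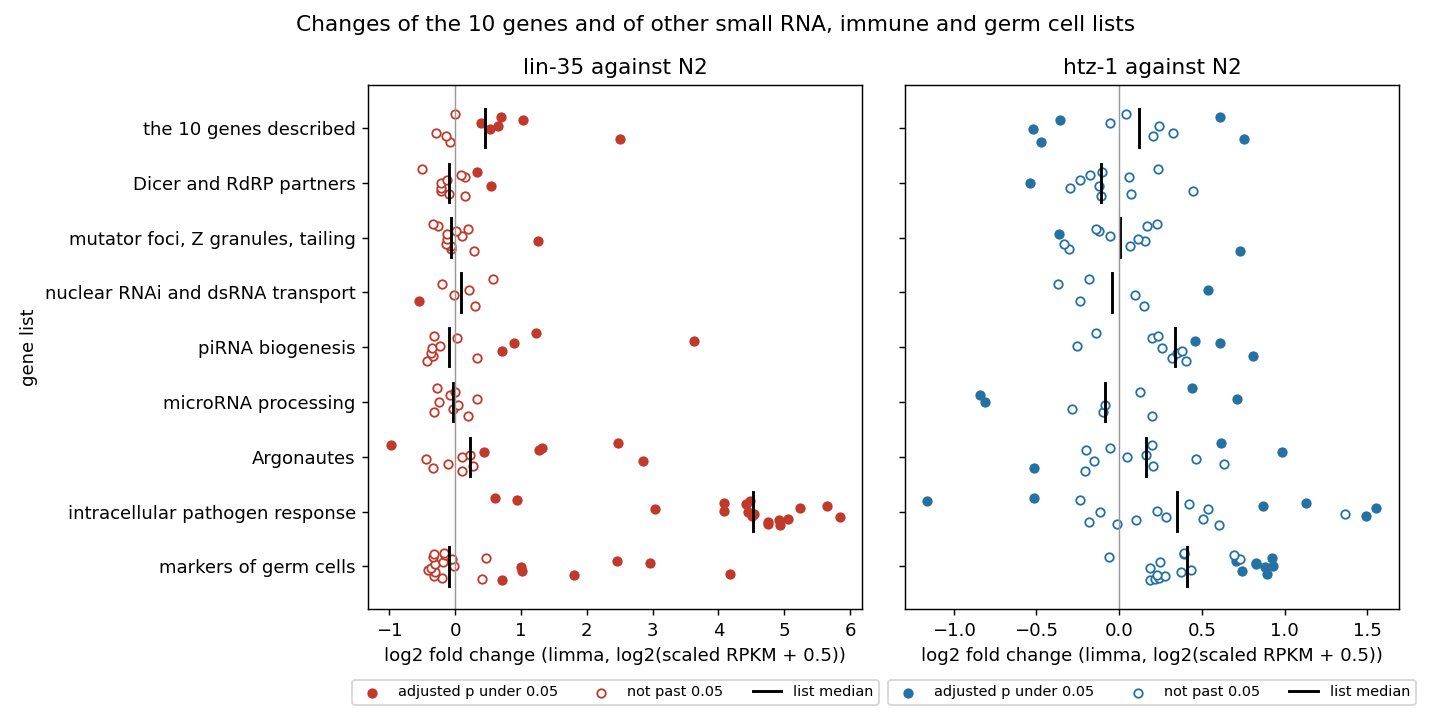
Log2 fold change against N2 (limma, log2(scaled RPKM + 0.5)) of each tested gene in lin-35 (left) and htz-1 (right), by list; the x axes of the panels differ in range. Filled points passed an adjusted p under 0.05, and black ticks are list medians. The median of the 18 pathogen response genes is 4.53 for lin-35 and 0.35 for htz-1, and that of the 10 genes 0.46 and 0.12.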

How the data were processed

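RNA-seq values of 6 libraries were used, and the 14 other samples of the series were not analysed here. Per the methods and the submitters' notes, the authors aligned reads with BWA to ce10, counted them per gene with HTSeq, compared genotypes with DESeq2 and left out genes that oscillate in larval development. The deposited values are RPKM. Columns with the authors' log2 fold changes and p-values were not used.

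limma 3.58.1 (R 4.3.3, variance trend) was run on log2(RPKM + 0.5), the RPKM first divided by median-of-ratios factors of 0.949 to 1.11, with all genotypes in 1 fit, 3 residual and 4.01 prior degrees of freedom, a minimum mean RPKM of 1, two-sided tests and Benjamini-Hochberg adjustment. A log-scale test replaced a count test because of the unit. An exact permutation test of 2 against 2 libraries cannot reach 0.05 and was not run. Reads were recovered from RPKM steps, and 100% of genes gave whole reads within 0.002 reads; on simulated data 97.5% of genes were recovered. The scripts were tested on simulated data.

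Symbols come from the WBcel235 gene table (15397 of 15568 names matched), used for names and gene order. Beside the 10 genes, the text names up to 4 called genes per list with the largest change, the 3 genes most like rrf-2 and the mutated genes; sago-1 in lin-35, ppw-2, skr-3 and the neighbours that are described were added after their values were seen. The members and lists were chosen with earlier results of these data known.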

Additional observations from a re-analysis of the deposited data

Results flagged for a closer look

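The change against N2 differed between the mutants for 5 genes, by the lin-35 against htz-1 contrast of the limma fit. The change in lin-35 minus that in htz-1 was 1.74 for rrf-2, 1.38 for rde-4, 1.05 for drh-1, 0.44 for dcr-1 and 0.41 for drh-3 (log2). Both lin-35 libraries were above both htz-1 libraries for each of the 5 genes. The same libraries gave the calls that picked these genes, so this separation adds no support. The share of all tested genes without overlap was not counted for lin-35 against htz-1. drh-1 and rde-4 were called in opposite directions against N2. With 2 libraries per genotype no library could be screened as an outlier.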

How the results depend on the processing

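Of the calls against N2, those of rrf-2, drh-3 and rde-4 in lin-35 held under all 16 alternatives, and none of the 5 calls in htz-1 did. Between the mutants the calls of rrf-2, drh-1 and rde-4 held, and no called gene turned direction in any comparison. With 2 libraries per genotype, each spread rests mostly on the other genes, and with 87 to 170 reads rde-3 is limited by counting. When each library was left out in turn, lin-35 had 3 to 6 of the 10 genes higher and 0 to 1 lower, htz-1 had 0 to 2 higher and 0 to 3 lower, and lin-35 against htz-1 had 3 to 4 higher and 0 to 1 lower. Over all genes this gave 655 to 1186 higher and 456 to 1137 lower in lin-35, 574 to 1558 higher and 592 to 1697 lower in htz-1, and 858 to 1222 higher and 621 to 1172 lower in lin-35 against htz-1. In the 6 small RNA lists it gave 8 to 12 higher and 0 to 5 lower in lin-35, 3 to 9 higher and 2 to 5 lower in htz-1, and 10 to 12 higher and 2 to 12 lower between the mutants.

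At the thresholds of the study (adjusted p under 0.001, fold above 1.5), 2 of the 10 genes were called in lin-35 (rrf-2 and rde-4), 0 in htz-1 (0 higher and 0 lower) and 2 in lin-35 against htz-1. All genes then gave 193 higher and 96 lower, 74 higher and 98 lower, and 187 higher and 63 lower, and the small RNA lists 6 and 0, 0 and 0, and 6 and 0. With the RPKM as deposited, 1781 genes were higher and 592 lower in lin-35 (75.1% of calls higher, against 51.1% after scaling), and 2286 were higher and 815 lower in lin-35 against htz-1 (73.7% higher, against 51.4%). The lists had 19 higher in lin-35, 3 lower in htz-1, and 21 higher and 8 lower between the mutants. Without scaling, uncalled changes in lin-35 became 0.10 for rrf-1, 0.021 for rrf-3 and 0.17 for mut-16, and mut-16 differed by 0.13 between the mutants. With quantile normalization, lin-35 had 4 and htz-1 had 1 gene of the 10 higher than N2, lin-35 against htz-1 had 1 lower, and rde-3 differed by −0.056 between the mutants. Without a filter lin-35 had 4 and htz-1 had 1 of the 10 higher than N2, and the lists had 3 lower in htz-1 and 9 lower between the mutants. Without a variance trend lin-35 had 5 of the 10 higher and htz-1 had 1 lower than N2, and the lists had 1 lower in lin-35 and 8 lower between the mutants. With only the 2 genotypes compared, 5 of the 10 were higher in lin-35 than in N2. The mutants then differed at 3 of the 10 genes, with 7 list genes lower. limma-voom on recovered reads called 1 of the 10 lower in lin-35 than in htz-1. Leaving out single libraries turned uncalled values: rrf-1 in lin-35 (−0.20 to 0.043), ego-1 in lin-35 (−0.64 to 0.058), mut-16 in lin-35 (−0.030 to 0.027), dcr-1 in htz-1 (−0.13 to 0.034) and rde-3 between the mutants (−0.021 to 0.19). The cause was not tested.

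Replicate numbers are shared between genotypes, and lin-35 and N2 libraries of a number share a code in their names that htz-1 libraries lack; no source says what either marks. The deviations of same-numbered libraries correlated at 0.32 between lin-35 and N2, 0.099 between htz-1 and N2 and 0.016 between lin-35 and htz-1 (9679 genes). With the replicate block, 5 of the 10 genes were higher in lin-35, 2 were higher and 3 lower in htz-1, and 6 were higher (rrf-1 added) and 1 lower (ego-1) in lin-35 against htz-1; dcr-1 lost its call in lin-35 (limma adjusted p = 0.0531). With the block and only the 2 genotypes compared, 6 were higher in lin-35, 2 were higher and 2 lower in htz-1 (rde-4 lost) and 3 were higher between the mutants, and 7 list genes were lower in lin-35.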
